A study of Mus musculus with 24 samples.

Results

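The transcripts described here are those of Nfe2l2, which encodes the transcription factor NRF2, of its inhibitor Keap1, and of 8 NRF2 target genes that lie outside glutathione synthesis: Nqo1, Hmox1, Txnrd1, Srxn1, Osgin1, Prdx1, Txn1 and G6pdx. They were found by the gene symbol that the platform annotation gives each probe set, with no use of their values. Of the 10 listed genes, 8 had a probe set with a symbol of its own, 15 probe sets in all among the 22690 on the array. The 5 probe sets of Prdx1 also carry the symbol of a second gene and were not assigned, and G6pdx was not analysed here. Of the 15 probe sets, 12 passed the filter on low signals. All 8 genes were among the 8008 genes tested, each through its brightest probe set that passed. Nqo1 passed the filter on low signals through 5 arrays, all of them from ozone-exposed lungs at 24 or 48 h.

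The samples are left lung lobes of 24 male mice, of strain C3H/HeOuJ (OuJ; Tlr4 sufficient) or strain C3H/HeJ (HeJ; a dominant negative Tlr4 allele). The mice were kept in air or inhaled the oxidant gas ozone for 6, 24 or 48 h, giving 8 groups of 3 mice with 1 Affymetrix array each. Neither the age of the mice nor the ozone concentration is known here. The series asks how lung transcripts respond to ozone when the receptor Tlr4 is deficient. Array medians lay between 200.1 and 229.3 signal units, and all 10 lung epithelial markers examined had a probe set, with Sftpc, the surfactant protein of alveolar type 2 cells, at signals of 27216 to 40839. The labels carry sample codes of 3 series, numbered 3 for air and 6 h in either strain, 10 for 24 and 48 h in OuJ, and 13 for 24 and 48 h in HeJ. Ozone and code series therefore cannot be told apart at 24 and 48 h when air is the reference. As a sign of RNA quality, the 5′ over 3′ ratio of control probe sets ranged from 0.781 to 1.03 for Gapdh in OuJ and from 0.497 to 0.944 in HeJ. In air it did not overlap between the strains, at 0.781 to 0.933 in OuJ and 0.511 to 0.621 in HeJ. For actin in air it was 0.848 to 0.890 and 0.571 to 0.690. The HeJ 24 h arrays had Gapdh ratios of 0.605 to 0.944. The part of this ratio in the values below was not tested. In these whole-lobe samples, more cells of a type and more RNA per cell cannot be told apart.

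NRF2 is held at a low level by KEAP1, an adaptor that brings it to a CUL3 ubiquitin ligase. Oxidants and electrophiles modify cysteines of KEAP1, newly made NRF2 then escapes degradation, and as a dimer with a small MAF protein it binds antioxidant response elements in its target genes. The targets here belong to several branches of the response: thioredoxin reductase (Txnrd1), thioredoxin (Txn1), sulfiredoxin (Srxn1) and a peroxiredoxin (Prdx1) form a thiol relay, G6pdx supplies NADPH, Hmox1 breaks down haem, Nqo1 reduces quinones, and Osgin1 is a growth inhibitor induced by oxidative stress. In the lung, NRF2 is known for its role in tolerance of inhaled oxidants.

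The core of the antioxidant response element, TGACNNNGC, was searched on either strand from 250 bases before to 50 bases after the annotated starts in RefSeq (GRCm38.p6), where 9 of the 10 genes had an entry. Of these 9 genes 5 held a match, and 14.0% of all 27025 genes with an entry did. The matches of 4 of them are shown. Of these genes 3, Nfe2l2, Txnrd1 and Srxn1, are shown because they passed the test in at least 1 comparison below. Prdx1 is shown because it alone held TGACTCAGC, a case of the core with its free bases fixed, found in 0.503% of genes. Capitals mark the match, read 5′ to 3′ on the strand of the gene.
Nfe2l2, chr2:75704875-75704913, minus strand, core read on the strand of the gene: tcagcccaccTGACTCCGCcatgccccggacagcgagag
Txnrd1, chr10:82859094-82859142, plus strand, core on the opposite strand: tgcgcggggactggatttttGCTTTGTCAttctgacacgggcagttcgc
Srxn1, chr2:152105542-152105570, plus strand, core on the opposite strand: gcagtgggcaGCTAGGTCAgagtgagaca
Prdx1, chr4:116685446-116685494, plus strand, core on the opposite strand: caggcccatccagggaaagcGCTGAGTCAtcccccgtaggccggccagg
The match begins 240 bases before the start in Nfe2l2, 92 bases before it in 1 of the 3 annotated starts of Txnrd1 and 133 bases before it in Prdx1, while that of Srxn1 lies 28 bases after the start. G6pdx held a match as well. The windows of Osgin1, Nqo1, Keap1 and Txn1 do not contain these letters, which says nothing about binding outside them.

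Each change is a difference of mean log2(signal + 16) with its limma SE over 3 arrays per group, and a gene rose or fell where its Benjamini-Hochberg adjusted p over all genes tested was under 0.05. Members rose in each strain at 24 and 48 h and none fell in any comparison. At 24 h 3 of the 8 tested members rose in OuJ, where 3.16% of all genes did, and 3 in HeJ, where 3.15% did. At 48 h 3 rose in OuJ, against 3.7% of all genes, and 4 in HeJ, against 5.67%. Nfe2l2, Txnrd1 and Osgin1 were the 3 in each case, and Srxn1 was the fourth in HeJ at 48 h. Of all genes 3.41% fell in OuJ and 3.96% in HeJ at 24 h, and 4.21% and 6.44% at 48 h. In either direction 6.57% of all genes passed in OuJ and 7.11% in HeJ at 24 h, and 7.9% and 12.1% at 48 h. The exposed arrays all lay above the 3 air arrays for 5 members in OuJ at 24 h (11.2% of all genes), or 4 without Nqo1, which passed the filter through exposed arrays, for 5 at 48 h (12.5%), 4 in HeJ at 24 h (10.7%) and 5 at 48 h (13.7%). The median change of the 8 members was 0.35 at 24 h and 0.34 at 48 h in OuJ, and 0.35 and 0.73 in HeJ (0.42, 0.39, 0.43 and 0.77 for the 7 members other than Nqo1), while the median of all genes lay between -0.03 and -0.02 in these comparisons. Osgin1 is in each of these counts and medians, and it too passed the filter only with the help of exposed arrays. The comparisons within a strain share the same 3 air arrays.

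**Figure D1:**
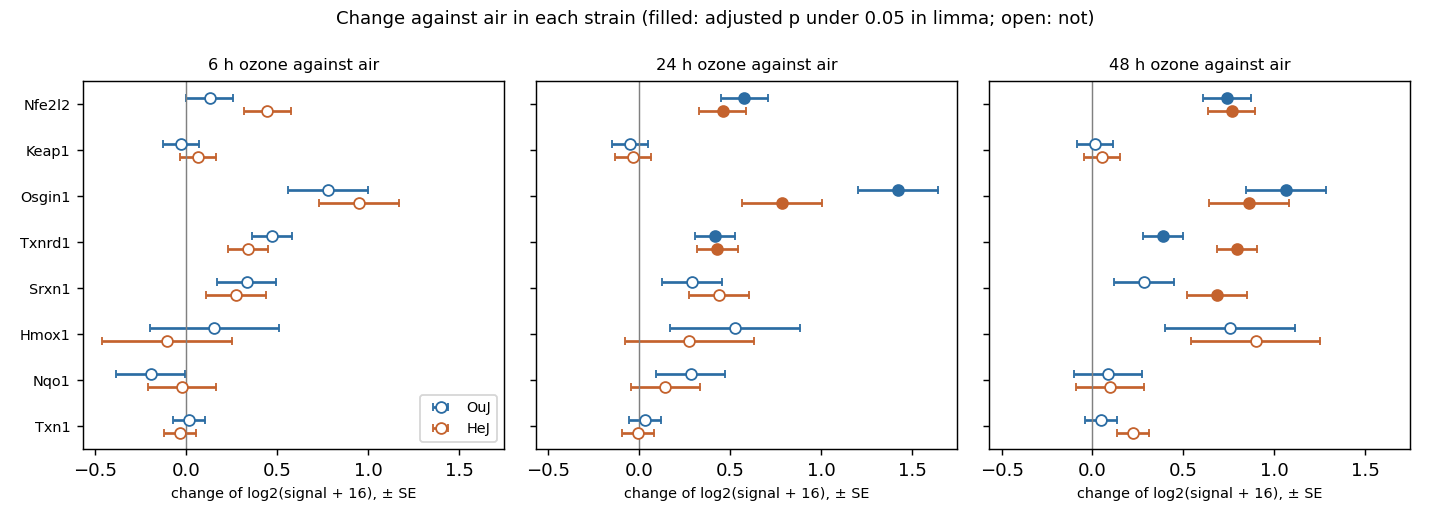
Change of each tested gene against air, as the difference of log2(signal + 16) ± SE (x axis), at 6, 24 and 48 h of ozone in OuJ (blue) and HeJ (orange), with 3 arrays per group. Filled points passed at an adjusted p under 0.05. Nfe2l2, Osgin1 and Txnrd1 are filled in either strain at 24 and 48 h, Srxn1 in HeJ at 48 h, and Keap1 and Txn1 stay near 0 except for Txn1 in HeJ at 48 h (0.22 ± 0.09).

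The transcript of NRF2 itself rose at 24 and 48 h in either strain, times at which ozone and code series cannot be told apart. The transcript of the NRF2 inhibitor Keap1 did not pass in any comparison. In OuJ, Nfe2l2 signals were 1906.3, 2656.9 and 2328.7 in air, 2260.6, 2881.3 and 2379.3 at 6 h, 2890.4, 3639.1 and 3758.3 at 24 h, and 4104.7, 3590.0 and 3760.0 at 48 h. In HeJ they were 1625.0, 1936.0 and 1748.9 in air, 2251.9, 2546.1 and 2440.9 at 6 h, 2077.2, 2666.8 and 2598.9 at 24 h, and 3238.3, 2823.4 and 2992.2 at 48 h. All arrays of 24 and 48 h lay above the air arrays of their strain, and in HeJ those of 6 h did so too. Nfe2l2 rose by 0.58 ± 0.13 at 24 h (adjusted p = 0.00744) and by 0.74 ± 0.13 at 48 h (adjusted p = 0.00096) in OuJ. In HeJ it rose by 0.46 ± 0.13 at 24 h (adjusted p = 0.0331) and by 0.77 ± 0.13 at 48 h (adjusted p = 0.000469). At 6 h it differed from air by 0.13 ± 0.13 in OuJ (adjusted p = 0.787) and by 0.45 ± 0.13 in HeJ (adjusted p = 0.285). In order of mean level the groups were HeJ air, OuJ air, HeJ 6 h, HeJ 24 h, OuJ 6 h, HeJ 48 h, OuJ 24 h and OuJ 48 h, and the arrays of each neighbouring pair overlapped. The 48 h rises passed in every alternative run. The OuJ 24 h rise lost its call without OuJ air replicate 1 (0.45, adjusted p = 0.0676), with OuJ 24 h replicate 3 left out (0.51, adjusted p = 0.0552) and in a fit on only the groups compared (adjusted p = 0.0524). The HeJ 24 h rise lost it without HeJ air replicate 1 (0.40, adjusted p = 0.119) or 3 (0.45, adjusted p = 0.0862), without HeJ 24 h replicate 2 (0.39, adjusted p = 0.101) or 3 (0.41, adjusted p = 0.116), after median centring (adjusted p = 0.0535), in a fit on only the groups compared (adjusted p = 0.0727) and without the arrays whose codes carry a suffix (0.66, adjusted p = 0.148).

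Keap1 kept a narrow range by its brighter probe set. The probe set tested had signals of 758.7 to 940.8 over the 12 OuJ arrays and of 882.1 to 1064.5 over the 12 HeJ arrays, and exposed and air arrays overlapped at every time in either strain. Its changes against air ran from -0.05 ± 0.10 at 24 h in OuJ to 0.07 ± 0.10 at 6 h in HeJ. At 48 h the 95% interval of the change was -0.19 to 0.22 in OuJ and -0.15 to 0.26 in HeJ. The second, dimmer probe set of Keap1 changed by 0.33 ± 0.16 at 24 h in HeJ (adjusted p = 0.235 over all probe sets kept) and by -0.20 ± 0.16 at 48 h (adjusted p = 0.478), and did not pass either.

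**Figure D2:**
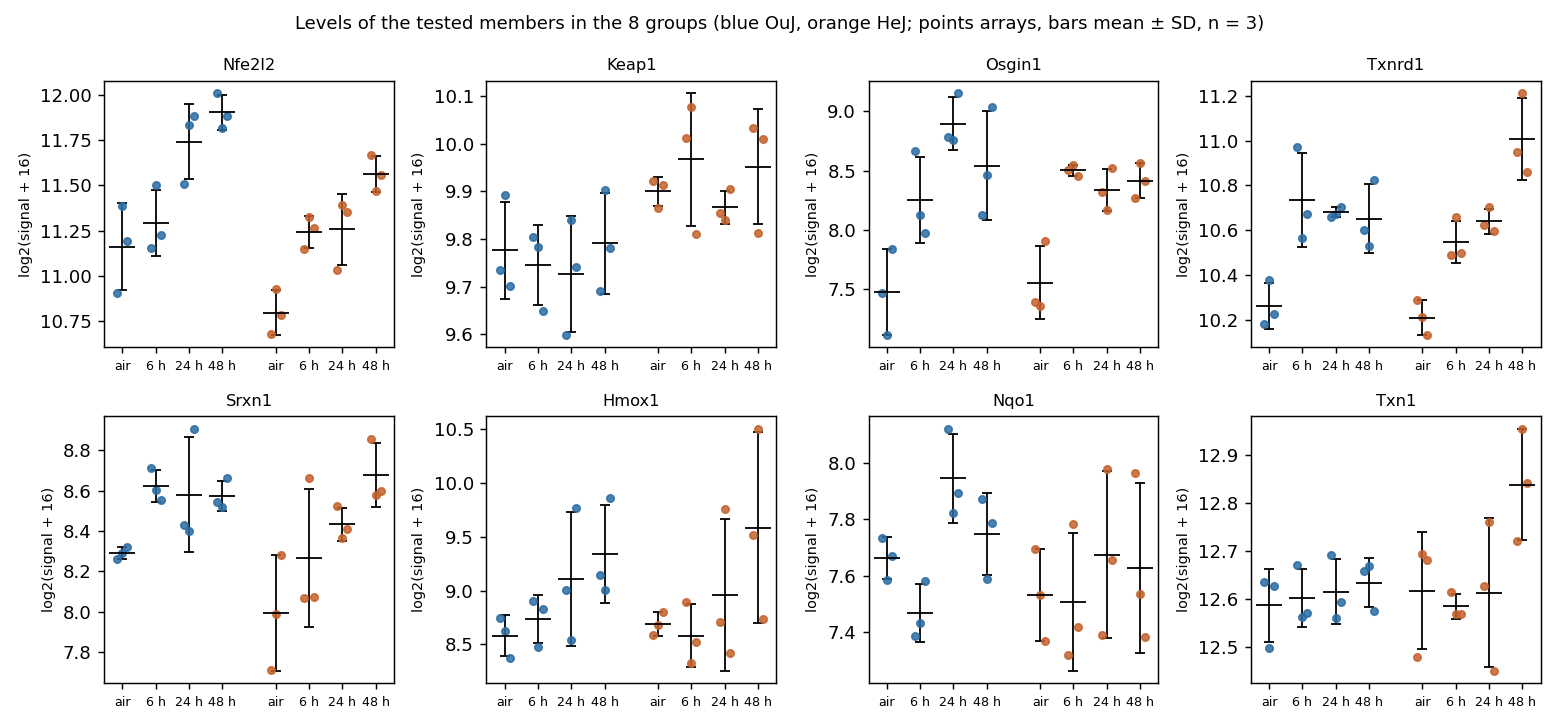
Levels of the 8 tested genes, log2(signal + 16) (y axes, each on its own range), in air and after 6, 24 and 48 h of ozone, with points for the 3 arrays of a group and bars for the mean ± SD, OuJ in blue and HeJ in orange. The Osgin1 and Txnrd1 exposed arrays lie above the air arrays at every time in either strain, and the Hmox1 arrays of HeJ at 48 h run from 409.6 to 1439.7 in signal.

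Osgin1, the stress-induced growth inhibitor, changed more than the other 7 genes at 24 h in either strain and at 48 h in OuJ. In OuJ its signals were 160.8, 122.4 and 213.3 in air, 389.1, 262.8 and 234.9 at 6 h, 423.6, 416.5 and 553.8 at 24 h, and 263.3, 336.0 and 508.6 at 48 h. In HeJ they were 152.2, 147.7 and 224.2 in air, 346.7, 359.2 and 335.3 at 6 h, 302.9, 271.7 and 351.8 at 24 h, and 292.7, 362.9 and 324.1 at 48 h. No exposed array of either strain came down to the air range of its strain. Osgin1 rose by 1.42 ± 0.22 at 24 h in OuJ (adjusted p = 0.000315), which is 2.68-fold on this scale, and by 1.07 ± 0.22 at 48 h (adjusted p = 0.00382), and these calls passed in every alternative run. In HeJ it rose by 0.78 ± 0.22 at 24 h (adjusted p = 0.0322) and by 0.86 ± 0.22 at 48 h (adjusted p = 0.0122). The HeJ 24 h call was lost without HeJ air replicate 1 (0.70, adjusted p = 0.108) or 2 (0.68, adjusted p = 0.125), without HeJ 24 h replicate 1 (0.79, adjusted p = 0.0764) or 3 (0.69, adjusted p = 0.121), without a filter (adjusted p = 0.0558), in a fit on only the groups compared (adjusted p = 0.0549) and without suffixed arrays, where 1 HeJ 24 h array is left (0.52, adjusted p = 0.607). The HeJ 48 h call was lost without HeJ air replicate 1 (adjusted p = 0.0530) or 2 (adjusted p = 0.0589), without HeJ 48 h replicate 2 (adjusted p = 0.0549) and without suffixed arrays (adjusted p = 0.0792), with changes of 0.76 to 0.79.

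In the thioredoxin branch the reductase Txnrd1 rose while its substrate Txn1 did not pass. In OuJ, Txnrd1 signals were 1145.3, 1316.6 and 1182.5 in air, 1990.1, 1499.9 and 1616.2 at 6 h, 1603.0, 1618.0 and 1654.1 at 24 h, and 1539.3, 1461.4 and 1796.5 at 48 h. In HeJ they were 1235.0, 1170.3 and 1106.2 in air, 1424.3, 1599.5 and 1429.6 at 6 h, 1560.2, 1650.5 and 1531.9 at 24 h, and 1960.8, 2354.8 and 1842.9 at 48 h. The exposed arrays lay above the air arrays at all 3 times in either strain, and the HeJ 48 h arrays lay above every other HeJ array. Txnrd1 rose by 0.42 ± 0.11 at 24 h (adjusted p = 0.0249) and by 0.39 ± 0.11 at 48 h (adjusted p = 0.0302) in OuJ, and by 0.43 ± 0.11 (adjusted p = 0.0184) and 0.80 ± 0.11 (adjusted p = 6.25e-05) in HeJ. The HeJ 48 h call passed in every alternative run. The OuJ 24 h call was lost without OuJ air replicate 1 (adjusted p = 0.104) or 3 (adjusted p = 0.0745), and with OuJ 24 h replicate 1 left out (adjusted p = 0.0517), 2 (adjusted p = 0.0584) or 3 (adjusted p = 0.0843). The OuJ 48 h call was lost without OuJ air replicate 1 (adjusted p = 0.12) or 3 (adjusted p = 0.0925), and with OuJ 48 h replicate 1 left out (adjusted p = 0.0621) or 3 (adjusted p = 0.190). The HeJ 24 h call was lost without HeJ air replicate 2 (adjusted p = 0.0533) or 3 (adjusted p = 0.0779), without HeJ 24 h replicate 1 (adjusted p = 0.0510) or 2 (adjusted p = 0.0530), in a fit on only the groups compared (adjusted p = 0.0543) and without suffixed arrays (adjusted p = 0.275). In these runs the changes stayed between 0.30 and 0.49. A further pair of Txnrd1 probe sets, with signals of 2.3 to 221.4, did not pass the filter, and neither passed in a fit without it.

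Txn1, the thioredoxin that Txnrd1 reduces, had signals of 5767.1 to 6594.8 over the 12 OuJ arrays, and in HeJ of 5578.1 to 6920.1 in air and at 6 and 24 h. At 48 h in HeJ its signals were 6732.4, 7917.3 and 7318.8, all above the air arrays of 5686.5, 6608.1 and 6547.9. That change was 0.22 ± 0.09 (adjusted p = 0.11), and all others against air lay between -0.03 and 0.05. The second probe set of Txn1 changed by 0.22 ± 0.24 in the same comparison (adjusted p = 0.618 over all probe sets kept). In OuJ it changed by -0.51 ± 0.24 at 6 h (adjusted p = 0.506) and by 0.40 ± 0.24 at 48 h (adjusted p = 0.373), where the first probe set stayed within 0.05 of 0.

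Srxn1, the sulfiredoxin that repairs over-oxidized peroxiredoxins, rose in HeJ at 48 h by the probe set tested, and its probe sets disagreed. The probe set tested, 1426875_s_at, had OuJ signals of 290.4, 297.2 and 303.2 in air, 402.7, 372.3 and 360.1 at 6 h, 328.3, 322.1 and 464.3 at 24 h, and 357.5, 350.9 and 388.5 at 48 h. In HeJ it had 193.2, 237.9 and 295.4 in air, 251.9, 389.3 and 253.5 at 6 h, 351.7, 313.3 and 324.3 at 24 h, and 447.9, 365.7 and 371.6 at 48 h. Every exposed array lay above the air arrays of its strain, apart from HeJ at 6 h. The change at 48 h was 0.68 ± 0.16 in HeJ (adjusted p = 0.00811) and 0.29 ± 0.16 in OuJ (adjusted p = 0.336), and at 24 h it was 0.44 ± 0.16 in HeJ (adjusted p = 0.109) and 0.29 ± 0.16 in OuJ (adjusted p = 0.337). The HeJ value was 0.54 without HeJ air replicate 1 (adjusted p = 0.0559), and -0.04 (adjusted p = 0.892) when the kept Srxn1 probe sets were averaged. The same averaging gave 0.45 at 48 h in OuJ, which passed (adjusted p = 0.0488).

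That turn comes with probe set 1419942_at, which moved in opposite directions in the 2 strains. Its signals in OuJ were 127.7, 183.7 and 136.8 in air, 215.1, 204.7 and 285.8 at 6 h, 264.1, 223.2 and 274.2 at 24 h, and 382.7, 292.2 and 278.5 at 48 h. In HeJ they were 378.9, 403.3 and 250.1 in air, 153.6, 199.0 and 151.2 at 6 h, 147.2, 144.9 and 250.8 at 24 h, and 178.7, 217.8 and 198.8 at 48 h. In a fit of all 12866 probe sets kept it changed by 1.01 ± 0.21 at 48 h in OuJ (adjusted p = 0.00515) and by -0.72 ± 0.21 in HeJ (adjusted p = 0.0311). In air it was 1.11 ± 0.21 higher in HeJ (adjusted p = 0.0106). The OuJ air arrays and the HeJ 6 and 48 h arrays all lay below the signal threshold of the filter. Each of these comparisons therefore has a group wholly below that threshold. The other 2 probe sets of Srxn1 did not pass in any comparison with air: 1451680_at changed by -0.21 to 0.26, and 1425351_at, which did not pass the filter, by 0.18 to 0.37 in a fit without it. The transcript regions that these probe sets cover were not analysed here.

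**Figure D3:**
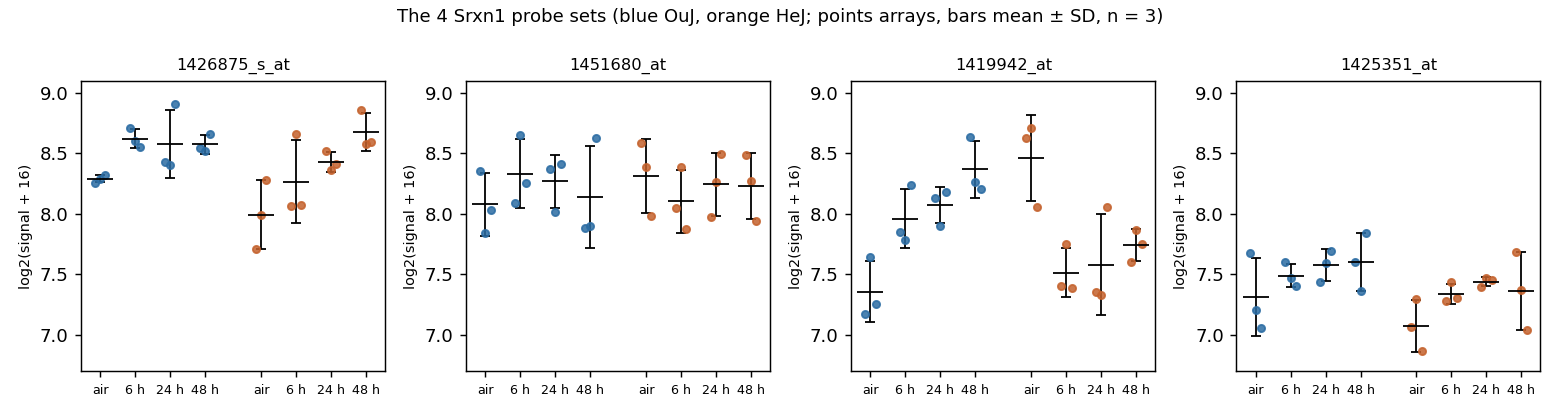
Levels of the 4 Srxn1 probe sets, log2(signal + 16) (y axis), in air and after 6, 24 and 48 h of ozone in OuJ (blue) and HeJ (orange), with points for arrays and bars for the mean ± SD (n = 3). In 1419942_at the OuJ exposed arrays lie above OuJ air, while the HeJ 6 and 48 h arrays lie below HeJ air, and 1426875_s_at, the probe set tested, shows higher levels after 48 h in either strain.

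Hmox1, the inducible haem oxygenase, did not pass in any comparison and varied between the mice of a group. In OuJ its signals were 413.8, 377.9 and 315.6 in air, 462.6, 340.2 and 437.9 at 6 h, 498.9, 355.9 and 858.1 at 24 h, and 550.3, 498.9 and 914.2 at 48 h. In HeJ they were 367.2, 393.3 and 430.1 in air, 460.9, 305.4 and 350.4 at 6 h, 400.6, 853.0 and 326.4 at 24 h, and 715.1, 1439.7 and 409.6 at 48 h. In HeJ at 48 h the highest array was 3.51 times the lowest, against 1.17 times in HeJ air, and in OuJ at 24 h and HeJ at 24 h it was 2.41 and 2.61 times the lowest. The change at 48 h was 0.76 ± 0.36 in OuJ (adjusted p = 0.218), where the arrays did not overlap with air, and 0.90 ± 0.36 in HeJ (adjusted p = 0.108), where they did. At 24 h it was 0.53 ± 0.36 in OuJ (adjusted p = 0.441) and 0.28 ± 0.36 in HeJ (adjusted p = 0.711). Without HeJ 48 h replicate 3 the 48 h change in HeJ was 1.32 (adjusted p = 0.0212), and that in OuJ passed in a fit on only the groups compared (adjusted p = 0.0477).

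Nqo1, the quinone reductase that is often read as the marker of NRF2 activity, had low signals on this array, from 143.6 to 262.6. In OuJ the 24 h arrays, at 262.6, 210.1 and 221.5, lay above the air arrays at 196.8, 176.0 and 187.7, and the 6 h arrays, at 151.3, 156.7 and 175.5, lay below them. HeJ arrays overlapped with air at every time. The changes against air ran from -0.20 ± 0.19 at 6 h to 0.28 ± 0.19 at 24 h in OuJ (adjusted p = 0.775 and 0.434) and from -0.02 ± 0.19 to 0.14 ± 0.19 in HeJ. At 48 h the 95% interval of its change was -0.30 to 0.48 in OuJ and -0.29 to 0.49 in HeJ.

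At 6 h no member passed within a strain, where 0.137% of all genes passed in either direction in OuJ and 0.0375% in HeJ. At an unadjusted p under 0.05 limma gave 2 members in OuJ, out of 838 genes, and 3 in HeJ, out of 723 genes. Osgin1 differed from air by 0.78 ± 0.22 in OuJ (adjusted p = 0.121) and by 0.95 ± 0.22 in HeJ (adjusted p = 0.201), Srxn1 by 0.33 ± 0.16 and 0.27 ± 0.16, Hmox1 by 0.15 ± 0.36 and -0.11 ± 0.36, and Txnrd1 in HeJ by 0.34 ± 0.11 (adjusted p = 0.357). The exposed arrays all lay above air for 3 members in OuJ (7.94% of all genes) and for 3 in HeJ (5.38%), and all below it for 1 in OuJ, Nqo1 (9.03%). Averaged over the strains, with 6 exposed and 6 air arrays that all belong to code series 3, Osgin1 rose by 0.87 ± 0.16 (adjusted p = 0.0097) and Txnrd1 by 0.41 ± 0.08 (adjusted p = 0.0122), 2 of 8 members against 0.787% of all genes that rose and 1.17% that passed in either direction. Srxn1 differed by 0.30 ± 0.12 (adjusted p = 0.23) and Nfe2l2 by 0.29 ± 0.09 (adjusted p = 0.136). Keap1, Nqo1, Hmox1 and Txn1 lay between -0.11 (Nqo1) and 0.024 (Hmox1). The changes of Osgin1 and Txnrd1 had the same size in a fit on these 12 arrays alone and passed there at neither (adjusted p = 0.0548 and 0.0641), nor did they without the suffixed arrays (0.80 with adjusted p = 0.0721 and 0.38 with adjusted p = 0.0801). Txnrd1 in OuJ alone, at 0.47 ± 0.11 (adjusted p = 0.0608), passed after median centring (adjusted p = 0.0438) and when OuJ 6 h replicate 2 was left out (0.56, adjusted p = 0.0166).

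The strains were then compared for the size of the ozone change, as HeJ minus OuJ. At 24 and 48 h the exposed arrays of the strains belong to different code series. Strain and code series therefore cannot be told apart in the 24 and 48 h differences. Only the 6 h difference stays within the same code series. None of the 8 members passed at 6, 24 or 48 h, where 0.0125%, 0.0125% and 0% of all genes passed in either direction, and at an unadjusted p under 0.05 limma gave 0, 0 and 1 members out of 461, 626 and 658 genes. That member is Txnrd1 at 48 h, where the change was larger in HeJ by 0.41 (95% interval 0.08 to 0.73, adjusted p = 0.469). For Osgin1 at 24 h the difference was -0.64 (95% interval -1.28 to 0.01, adjusted p = 0.643), and for Srxn1 at 48 h it was 0.40 (95% interval -0.08 to 0.88, adjusted p = 0.707), a direction that turned to -0.49 when the kept probe sets were averaged. For Nfe2l2 at 48 h it was 0.03 (95% interval -0.35 to 0.41, adjusted p = 0.987). The intervals for Hmox1 were the widest, from -0.90 to 1.18 at 48 h. At 48 h the differences of Keap1 (0.037), Nqo1 (0.0091), Txn1 (0.17) and Osgin1 (-0.20) had intervals that included 0. So did those of all 8 members at 6 h, from -0.26 for Hmox1 to 0.32 for Nfe2l2, and at 24 h, from -0.64 for Osgin1 to 0.15 for Srxn1. In air no member passed between the strains by its tested probe set, where 0.774% of all genes did in either direction. Nfe2l2 was at -0.36 ± 0.13 in HeJ relative to OuJ (adjusted p = 0.175) with overlapping arrays. The other 7 members lay between -0.30 (Srxn1) and 0.12 (Keap1), with Nqo1 at -0.13, Txnrd1 at -0.052, Txn1 at 0.031, Osgin1 at 0.079 and Hmox1 at 0.11. The direction of Srxn1 turned to 0.35 when the kept probe sets were averaged, which did not pass. Its probe set 1419942_at was 1.11 ± 0.21 higher in HeJ air (limma, adjusted p = 0.0106 over all probe sets kept).

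From 24 to 48 h, a comparison that stays within a code series in each strain, no member passed in OuJ (0.15% of all genes in either direction) or in HeJ (5.47%). In HeJ the 48 h arrays of Txnrd1, Nfe2l2 and Srxn1 all lay above those of 24 h, as did 12.3% of all genes. The change of Txnrd1 was 0.37 ± 0.11 (adjusted p = 0.0547), which passed after median centring (0.41, adjusted p = 0.0449) and with probe sets averaged (adjusted p = 0.0431). That of Nfe2l2 was 0.31 ± 0.13 (adjusted p = 0.175), and those of the others ran from -0.048 for Nqo1 through Osgin1 (0.079), Keap1 (0.086), Txn1 (0.23) and Srxn1 (0.25) to 0.62 for Hmox1. The second probe set of Keap1 went the other way in HeJ, by -0.54 ± 0.16 with overlapping arrays (limma, adjusted p = 0.0507 over all probe sets kept). In OuJ the largest change by the probe sets tested was that of Osgin1, -0.36 ± 0.22 (adjusted p = 0.735), and the other 7, from Nqo1 (-0.20) to Hmox1 (0.23), overlapped as well. All 48 h arrays lay above those of 24 h in the second Txn1 probe set (0.55 ± 0.24) and in Srxn1 1419942_at (0.30 ± 0.21). Neither passed (limma, adjusted p = 0.598 and 0.82 over all probe sets kept). The Gapdh 5′ to 3′ ratio was 0.753 ± 0.174 in HeJ at 24 h and 0.593 ± 0.0878 at 48 h (SD, n = 3), and its part in these values was not tested.

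The rest of the pathway was followed in 7 lists by role, which hold 67 tested genes. Of the 11 tested genes of glutathione synthesis and use, 4 rose at 24 h and 3 at 48 h in OuJ, and 3 and 3 in HeJ, and none fell, where 3.16%, 3.7%, 3.15% and 5.67% of all genes rose. Gclc, the catalytic subunit of the enzyme that opens glutathione synthesis, rose by 1.65 ± 0.22 at 48 h in OuJ (adjusted p = 4.8e-05) and by 1.61 ± 0.22 in HeJ (adjusted p = 4.61e-05), more than any of the 8 members there. Averaged over the strains at 6 h it rose by 0.99 ± 0.15 (adjusted p = 0.00349). Gpx2, an epithelial glutathione peroxidase, rose by 0.71 ± 0.14 at 48 h in HeJ (adjusted p = 0.00155). List medians at 48 h were 0.10 in OuJ and 0.24 in HeJ.

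Among conjugating and detoxifying enzymes some genes rose and others fell. Of 20 tested, 4 rose at 24 h in OuJ, 2 rose and 2 fell at 48 h in OuJ, 3 rose and 2 fell at 24 h in HeJ, and 5 rose and 1 fell at 48 h in HeJ. Of all genes, 3.16%, 3.7%, 3.15% and 5.67% rose and 3.41%, 4.21%, 3.96% and 6.44% fell in these comparisons in the same order. Aldh3a1, an aldehyde dehydrogenase, rose by 0.67 ± 0.13 at 24 h in OuJ (adjusted p = 0.00205) and by 1.39 ± 0.13 in HeJ (adjusted p = 4.93e-07). Akr1b8, an aldo-keto reductase, rose by 0.62 ± 0.13 at 48 h in OuJ (adjusted p = 0.00431) and by 0.87 ± 0.13 in HeJ (adjusted p = 0.000126). Ephx1, the microsomal epoxide hydrolase, fell by 0.58 ± 0.11 at 48 h in HeJ (adjusted p = 0.00118).

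Of the 7 genes of NADPH supply 3 rose at 48 h in HeJ (5.67% of all genes), Pgd, Me1 and Taldo1, with a list median of 0.39, and 0 passed at 48 h in OuJ, with a median of 0.15. Pgd, which makes NADPH in the pentose phosphate pathway, rose there by 0.54 ± 0.11 (adjusted p = 0.00303) and differed by 0.15 ± 0.11 in OuJ at 48 h (adjusted p = 0.497). The Pgd call held in every alternative, that of Me1 in 13 of 17 and that of Taldo1 in 8 of 17. None of the 7 passed for the strain difference at 48 h.

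The remaining thioredoxin and peroxiredoxin genes did not share one direction. Of 8 tested, 0 rose and 2 fell at 24 h in each strain, Prdx2 and Txnrd3, where 3.41% of all genes fell in OuJ and 3.96% in HeJ. At 48 h 2 rose and 2 fell in HeJ, against 5.67% and 6.44% of all genes, and 1 rose in OuJ, against 3.7%. Txnrd3 was among those that fell at 48 h in HeJ, and each of its calls held in 13 of 17 alternatives. Txnip, the thioredoxin-binding protein, fell by 0.66 ± 0.13 at 48 h in HeJ (adjusted p = 0.00246), and Txnl1, a thioredoxin-like protein, rose by 0.50 ± 0.11 (adjusted p = 0.00333). Prdx2 fell by 0.35 ± 0.10 at 24 h in OuJ (adjusted p = 0.0367), a call that held in 10 of 17 alternatives.

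Of the 6 iron and haem handling genes, Slc40a1, the iron exporter, fell at 24 h (-0.75 ± 0.16, adjusted p = 0.00595) and at 48 h in OuJ, and no other passed against air. Among 11 regulators and partners of NRF2, 3 rose at 24 h and 2 at 48 h in either strain. Of all genes, 3.16% rose at 24 h and 3.7% at 48 h in OuJ, and 3.15% and 5.67% in HeJ. In OuJ 3.41% of all genes fell at 24 h and 4.21% at 48 h. Maff, a small MAF protein, rose by 1.89 ± 0.26 at 24 h in OuJ (adjusted p = 9.47e-05) and by 1.79 ± 0.26 in HeJ (adjusted p = 0.000169). Mafk, another small MAF protein, rose by 0.87 ± 0.19 and 0.95 ± 0.19 in the same comparisons (adjusted p = 0.00676 and 0.00363), in 15 and 16 of 17 alternatives. Cul3, the ligase scaffold that Keap1 binds, rose at 24 h in HeJ by 0.38 ± 0.11 (adjusted p = 0.0372), in 10 of 17 alternatives. Of the 4 superoxide and peroxide enzymes, Sod2, the mitochondrial superoxide dismutase, rose by 0.49 ± 0.09 at 48 h in HeJ (adjusted p = 0.00121) and by 0.42 ± 0.09 at 24 h and 0.35 ± 0.09 at 48 h in OuJ (adjusted p = 0.00637 and 0.0179, in 16 and 14 of 17 alternatives), and catalase fell at 48 h in OuJ, a call that held in 14 of 17 alternatives.

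**Figure D4:**
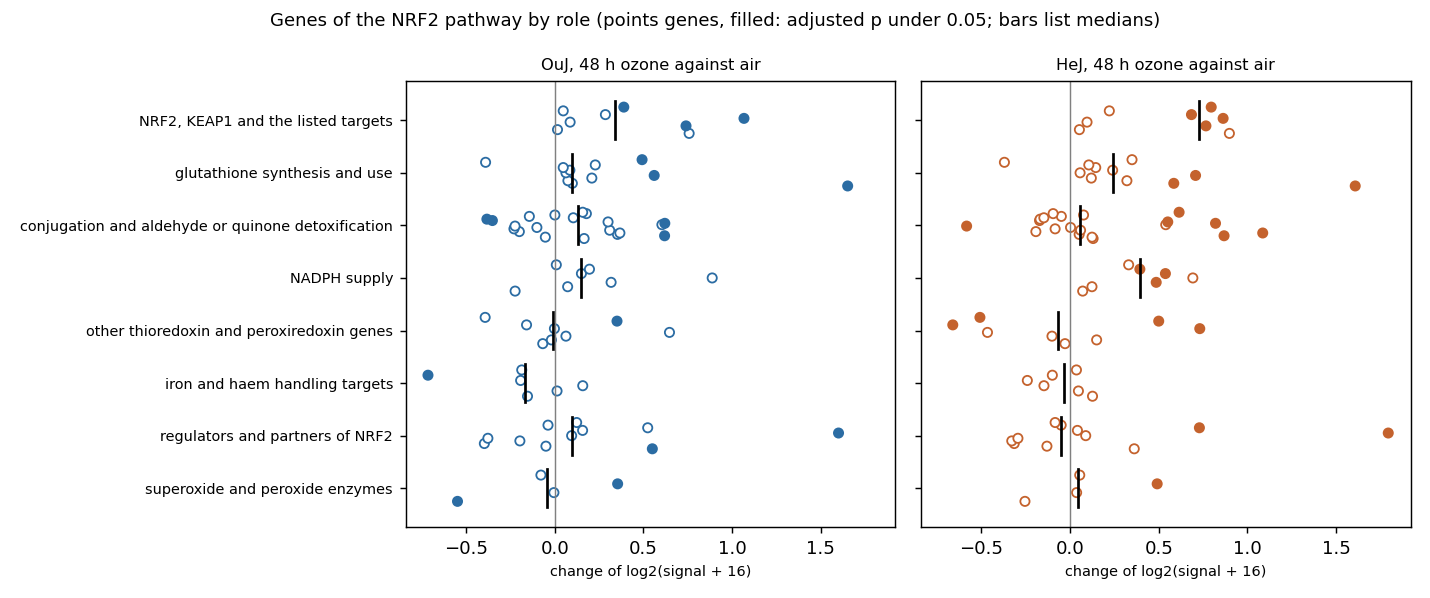
Change at 48 h against air, as the difference of log2(signal + 16) (x axis), of each tested gene of the NRF2 pathway, by role (rows), in OuJ (left) and HeJ (right). Points are genes, filled where the adjusted p was under 0.05, and bars are medians of the tested genes of a row. The rightmost filled points are Gclc (1.65 in OuJ, 1.61 in HeJ) and Maff (1.60 and 1.79).

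Across the 8 group means the members differed in how they moved together. The highest Pearson r between members was 0.89, for Txnrd1 and Srxn1, followed by 0.81 for Nfe2l2 and Srxn1, and the lowest was -0.49, for Keap1 and Nqo1. Among all other genes tested, the 3 with the highest r to Osgin1 were Cth (0.97), the cystathionine lyase that makes cysteine, the topoisomerase Top1 (0.95) and the nucleoside phosphorylase Pnp (0.94). For Txnrd1 they were Higd1a, Steap4 and Ubqln4 (0.92 to 0.95), for Srxn1 Smpd1, Cpne3 and Vps4a (0.95 to 0.98), for Hmox1 Ppa1, Clint1 and Uso1 (0.98 to 0.99), and for Nqo1 Npm1, 2410004B18Rik and Rabl6 (0.92 to 0.94). These are descriptions over 8 points that share arrays and code series.

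Markers of other cells of the lung were set beside these values. Of the 12 macrophage markers 11 had a probe set and none was at 0, and their summed signal overlapped between air and every exposed group of a strain, at 36134 to 40811 in OuJ air and 40931 to 45162 in OuJ at 48 h being the exception. In HeJ it was 40643 to 42859 in air and 36355 to 40815 at 48 h. Lyz2 alone had signals of 22543 to 37318, so the sum mostly follows this marker and says little about the others. Of 9 tested macrophage markers none rose in OuJ at 48 h (3.7% of all genes), while in HeJ Marco and Chil3 rose (5.67%) and Csf1r fell (6.44%). At 24 h 1 of them fell in HeJ (3.96% of all genes), and 1 rose at 6 h averaged over strains (0.787%). In air 1 was higher in HeJ than in OuJ, where 0.774% of all genes passed in either direction. Of the 10 neutrophil markers 9 had a probe set and none was at 0, and their sum was 3109 to 4055 in OuJ air, 1589 to 1862 at 24 h and 1707 to 2425 at 48 h, and 2751 to 3863, 2072 to 2805 and 1753 to 3402 in HeJ, and of 6 tested neutrophil markers 2 fell in OuJ at each of these times, S100a8 and S100a9, against 3.41% and 4.21% of all genes. Of 6 red cell markers 3 had a probe set and none of these was at 0, and their sum was 4473 to 6718 in HeJ air and 2323 to 2906 at 48 h, where Alas2 fell by 1.02 ± 0.22 and Slc4a1 by 1.32 ± 0.37 (adjusted p = 0.00352 and 0.021), the only 2 tested. Of all genes 6.44% fell at 48 h in HeJ. Slc4a1 also fell at 24 h in HeJ, where 3.96% of all genes did, and in OuJ neither Alas2 nor Slc4a1 passed. Of the 10 epithelial markers Sftpd rose at 24 and 48 h in either strain, by 0.30 to 0.47, and Aqp5 fell at 24 h in HeJ by 0.69 ± 0.14. Of all genes 3.16% and 3.7% rose at 24 and 48 h in OuJ and 3.15% and 5.67% in HeJ, and 3.96% fell at 24 h in HeJ. The part of these cells in the changes of the NRF2 genes was not tested.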

How the data were processed

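Total RNA of 24 left lung lobes was hybridized to 1 array each, per the labels' protocols. The deposited intensity values are linear and were made by the authors with GCOS 1.4, per the submitters' processing notes, with settings not stated in these notes. With 2% trimmed from each tail, array means lay between 500.1 and 500.2. Precision is limited by the number of arrays. The p-values rest on the spread within groups, with 1 array per mouse, pooled over the 8 groups. A difference between code series is not part of that spread. Groups came from the sample titles. Intensities were put on a log2(intensity + 16) scale. A probe set was kept if at least 3 arrays exceeded 218.3, the median over the whole table, which left 12866. Each gene with its own symbol was represented by its brightest kept probe set, giving 8008 genes, and 691 probe sets with several symbols were left out. In R 4.3.3, limma 3.58.1 fitted the 8 group means to the 24 arrays together, with an intensity trend of the variance, and 13 comparisons were drawn, each adjusted over all genes by Benjamini-Hochberg. The scripts were tested on simulated data. The members, gene lists and tests were chosen with earlier results of these data known. The rule for named genes took every tested member in each comparison, given by value or within a range, with up to 4 passing genes of each other list and the 3 genes most like 5 of the members. Alternatives covered the normalization (quantile, median centring), the pseudocount (1 and 64), the filter, the choice of probe set, the trend, fits on only the groups compared or within a code series, the replicate block, and leaving out suffixed arrays or each array in turn.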

Additional observations from a re-analysis of the deposited data

Results flagged for a closer look

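Probe set 1419942_at of Srxn1 moved in opposite directions in the strains: at 6 h and at 48 h every exposed OuJ array lay above the OuJ air arrays and every exposed HeJ array below the HeJ air arrays. The strain difference of the change, HeJ minus OuJ, was -1.56 at 6 h (limma, adjusted p = 0.213 over all probe sets kept) and -1.74 at 48 h (limma, adjusted p = 0.101). At 24 h it was -1.60 (adjusted p = 0.125), where the HeJ change of -0.88 passed (adjusted p = 0.0137) although its arrays overlapped with air. None of these differences passed after adjustment. At 24 and 48 h the exposed arrays of the strains also belong to different code series, which cannot be told apart from strain. The OuJ air arrays and the HeJ 6 and 48 h arrays all lay below the signal threshold of the filter.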

How the results depend on the processing

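Of the 15 calls of members 5 passed in every alternative: Osgin1 and Nfe2l2 at 48 h in OuJ, Osgin1 at 24 h in OuJ, and Nfe2l2 and Txnrd1 at 48 h in HeJ. The number of members that passed moved as follows, apart from left-out arrays. On only the groups compared it was 2 in place of 3 at 24 h and 4 in place of 3 at 48 h in OuJ. Averaged probe sets gave 4 at 48 h in OuJ and 3 in place of 4 at 48 h in HeJ, and the suffixed arrays left out also gave 3 there. Median centring and no filter each gave 2 in place of 3 at 24 h in HeJ. At 24 h in HeJ it fell from 3 to 0 in a fit on only the groups compared and to 0 without the suffixed arrays, where a lone array is assumed to vary like the other groups. For 6 h averaged over strains it fell from 2 to 0 in a fit on only the groups compared, which is also the fit within 1 code series (0), and to 0 without suffixed arrays. Median centring gave 1 at 6 h in OuJ and 1 for 48 against 24 h in HeJ, and averaging probe sets gave 1 for the latter. Averaging turned Srxn1 at 48 h in HeJ to -0.0412, because it brings in 1419942_at. Leaving out each array gave 0 to 1 members at 6 h and 1 to 3 at 24 h and 2 to 3 at 48 h in OuJ, 1 to 1 at 24 h and 2 to 5 at 48 h in HeJ. The replicate block left every member count as it was (3 at 24 h and 4 at 48 h in HeJ). Deviations of same-numbered arrays correlated at -0.08 to 0.20, over 0.1 in 5 of 27 pairs, and the numbers were not taken as pairs. With 3 candidates each, however, 17 of 27 arrays correlated best with their own number, which is more than 1 in 3. Of 269 alternative values of called members 225 kept the call, 43 lost it and 1 reversed. Of 71 pathway calls 25 passed in every alternative and none reversed. Among all genes and apart from left-out arrays, counts moved over 1.5 times at 6 h in OuJ (11, from 5 to 38), at 6 h in HeJ (3, from 0 to 4), at 6 h averaged (94, from 6 to 125), for 48 against 24 h in OuJ (12, from 6 to 21), between strains in air (62, from 32 to 215), at 24 h in HeJ (569, to 364 on only the groups compared and to 41 without suffixed arrays), and for 48 against 24 h in HeJ (438, to 200 on only the groups compared, to 1 without suffixed arrays and to 753 with all probe sets). In the same fits the strain differences at 6 and 24 h moved between 1 and 0. The strain difference at 48 h gave 11 genes on only the groups compared, and 0 to 2 otherwise. Leaving out each array gave 3 to 128 genes at 6 h in OuJ, 0 to 59 at 6 h in HeJ, 26 to 262 at 6 h averaged, 243 to 415 at 24 h (526) and 286 to 540 at 48 h (633) in OuJ, 335 to 628 at 24 h and 609 to 694 at 48 h (970) in HeJ, 6 to 22 and 104 to 647 for 48 against 24 h in OuJ and HeJ, and 19 to 59 in air. The other causes were not tested.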
